A study of Homo sapiens with 34 samples.

Results

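The MHC class I presentation genes were the 9 genes *HLA-B*, *HLA-C*, *HLA-E*, *HLA-F*, *B2M*, *TAP1*, *TAP2*, *TAPBP* and *NLRC5*, chosen by name for their place in the pathway and not by their values. All 9 were listed in each of the 6 comparisons of the study, among 17587 genes listed in at least 1 comparison and 13307 listed in all 6. RNA came from 3 human B-ALL (B-cell acute lymphoblastic leukemia) cell lines, each with its own driver fusion: ETV6-PDGFRB in NALM-6, MLL-AF4 in RS4;11 and BCR-ABL in BV-173. In each line, a lentiviral shRNA against *CCND3*, the gene of cyclin D3, was set against a scrambled lentiviral shRNA, and the transduced cells of both groups were sorted on day 4. Separately, cells kept for 3 days in 1 µM palbociclib, an inhibitor of the kinases CDK4 and CDK6, were compared with cells in the solvent DMSO. All cells grew in RPMI1640 with fetal bovine serum, and each fusion was represented by 1 line.

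The 12 groups held 34 samples, 3 in each group except the *CCND3* shRNA group of NALM-6 and the DMSO group of BV-173, which held 2. The deposited tables give 1 level per gene and group, scaled by the authors within each pair of groups, so no spread between replicates or SD can be given, no test was run, and the depth of each sample is unknown. A ratio between groups is therefore described by its size only. A 1.5-fold difference, 0.58 on the log2 scale, was taken as the size to count, and each count of members is set beside the percentage of all listed genes that reached it. The summed level of a group, in units of 1000000, was 17.8 to 20.8. The *CCND3* level after knockdown was 24.2% of the scrambled control for NALM-6, 20.7% for RS4;11 and 31.1% for BV-173, and after palbociclib it was 78.0%, 81.8% and 76.0% of DMSO. The 10 markers of B-cell precursors had a summed level of 57601 to 101359 in the 12 groups, against 0.869 to 7.89 for the 6 T-cell markers, of which *TRAC* was not listed, and 93.0 to 1196 for the 6 myeloid markers. *MME*, which encodes CD10, had mean levels of 4.61 and 5.01 in the knockdown and palbociclib tables of RS4;11, against 24207 and 24599 in NALM-6.

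MHC class I molecules show peptides from inside the cell to CD8 T cells. The heavy chain, encoded by *HLA-B* and *HLA-C* and, in the less variable forms that bind receptors of natural killer cells, by *HLA-E* and *HLA-F*, pairs with the light chain β2-microglobulin (*B2M*). *TAP1* and *TAP2* encode the pair of subunits that pump peptides from the cytosol into the endoplasmic reticulum, and *TAPBP* encodes tapasin, which holds the empty heavy chain next to this transporter while a peptide is chosen. *NLRC5* encodes the transactivator of class I genes, which acts on their promoters together with the RFX and NFY factors, and interferon and NF-κB act on many of the same promoters. Of the members, *HLA-F*, *HLA-E*, *HLA-C*, *HLA-B*, *TAP2*, *TAP1* and *TAPBP* lie in this order on the short arm of chromosome 6 (GRCh38.p14, from 29723434 for *HLA-F* to 33314078 for *TAPBP*), *B2M* lies at chr15:44711517-44718145 and *NLRC5* at chr16:56989557-57083520.

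The promoters of 5 members are shown because these genes carry the patterns described below. These are the correlation of *HLA-B* with *HLA-C* over the groups, the line difference of *B2M* and the levels of *TAP1* and *TAPBP* after treatment. Each sequence gives the 250 bases before the start of the gene, 5′ to 3′ in the direction of transcription, from RefSeq on GRCh38.p14, at chr6:31357180-31357429 (*HLA-B*, minus strand), chr6:31272093-31272342 (*HLA-C*, minus strand), chr15:44711267-44711516 (*B2M*, plus strand), chr6:32853705-32853954 (*TAP1*, minus strand) and chr6:33314079-33314328 (*TAPBP*, minus strand). Capitals mark matches, on either strand, to a pair of TTTC with 2 bases between (letters of the interferon-stimulated response element), to GGGGA directly followed by TTCCCC (an NF-κB palindrome), to TGACGC (letters of the X2 box) and to CCAAT (the Y box, bound by NFY).
HLA-B: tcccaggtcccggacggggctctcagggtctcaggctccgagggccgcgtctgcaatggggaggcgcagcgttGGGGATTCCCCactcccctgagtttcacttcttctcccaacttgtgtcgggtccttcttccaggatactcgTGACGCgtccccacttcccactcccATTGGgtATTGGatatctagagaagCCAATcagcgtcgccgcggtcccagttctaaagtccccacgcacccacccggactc
HLA-C: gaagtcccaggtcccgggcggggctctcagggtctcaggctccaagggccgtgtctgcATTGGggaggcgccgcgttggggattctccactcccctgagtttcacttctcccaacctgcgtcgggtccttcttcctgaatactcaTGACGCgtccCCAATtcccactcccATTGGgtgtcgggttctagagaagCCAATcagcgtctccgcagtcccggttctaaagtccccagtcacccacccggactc
B2M: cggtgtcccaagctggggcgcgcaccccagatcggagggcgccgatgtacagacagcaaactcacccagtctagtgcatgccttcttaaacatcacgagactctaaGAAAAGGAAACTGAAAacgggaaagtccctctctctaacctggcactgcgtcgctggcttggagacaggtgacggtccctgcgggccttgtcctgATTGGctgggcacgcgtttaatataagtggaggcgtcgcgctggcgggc
TAP1: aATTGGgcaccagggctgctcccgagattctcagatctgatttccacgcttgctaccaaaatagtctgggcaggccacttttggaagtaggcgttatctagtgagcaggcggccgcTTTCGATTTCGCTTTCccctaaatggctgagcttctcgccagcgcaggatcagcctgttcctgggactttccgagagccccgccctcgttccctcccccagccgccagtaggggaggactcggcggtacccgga
TAPBP: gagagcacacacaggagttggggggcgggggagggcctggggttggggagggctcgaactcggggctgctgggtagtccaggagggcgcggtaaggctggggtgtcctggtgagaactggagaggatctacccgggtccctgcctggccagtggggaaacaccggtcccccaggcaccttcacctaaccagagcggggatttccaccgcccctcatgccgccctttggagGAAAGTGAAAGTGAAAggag

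RefSeq promoters, here 250 bases before to 50 after a start, were matched for 7 of the 9 members, not for *HLA-E* and *NLRC5*. The TTTC pair was found in 5 of the 7, *HLA-F*, *B2M*, *TAP1*, *TAP2* and *TAPBP*, against 3.57% of 35116 promoters of the same length. In *B2M*, *TAP1* and *TAPBP* a pair of overlapping matches ran on, beginning 144, 134 and 20 bases before the start. The NF-κB palindrome was present in *HLA-B*, 177 bases before the start, and in 0.0313% of all promoters, 11 in number. TGACGC was found in *HLA-B*, *HLA-C* and *TAP2* (9.14% of all promoters), 106 and 105 bases before the start in the first pair. CCAAT was found in *HLA-B*, *HLA-C*, *HLA-F*, *B2M* and *TAP1* (34.6% of all promoters). *TAP1* has another start site in the table, whose promoter held none of these letters. These matches describe the reference sequence, and no binding was measured.

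Per kilobase of gene length, the only scale on which genes can be set side by side here, the members had a fixed order at the top. In each of the 12 groups, *B2M* was the highest member, followed by *HLA-B*, *HLA-C* and *HLA-E*. The level per kilobase of *B2M* was 23397 to 62186 over the groups (median 30234), that of *HLA-B* 13553 to 24594, that of *HLA-C* 6998 to 12043 and that of *HLA-E* 2019 to 7156. At most 0.527% of the listed genes were above *B2M* in a group. The transporter genes and tapasin were lower, at 675 to 1454 for *TAPBP*, 658 to 1430 for *TAP1* and 460 to 785 for *TAP2*. *HLA-F* (183 to 1374) and the transactivator *NLRC5* (175 to 520) had the lowest values, although *HLA-F* ranked 5 among the members in its highest group. Heavy chain reads may be shared between these genes or be lost where a line carries alleles unlike the reference, so the levels of these 4 genes are uncertain. In the reference transcripts, 2.56% of the 50-base words of *HLA-B*, 6.76% of *HLA-C*, 4.76% of *HLA-E* and 1.68% of *HLA-F* also occurred in another HLA gene.

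The DMSO and scrambled control levels of a line were used to order the lines for each member, and lines are called apart where these ranges did not overlap. They were apart for 4 of 9 members between NALM-6 and BV-173, 8 between RS4;11 and BV-173 and 7 between NALM-6 and RS4;11. Of all 13307 genes, 69.7%, 71.2% and 70.2% were apart in these pairs, so over the 3 pairs the share of the members was near that of all genes. Because the 6 tables were scaled separately, each group was first set to the same summed level over the 13307 shared genes, and levels are given per 1000000 of it, called scaled levels. *HLA-F* had the widest difference between lines, with scaled levels of 72.9 (DMSO) and 95.3 (scrambled) in RS4;11, 42.7 and 31.1 in NALM-6 and 14.2 and 12.5 in BV-173. The ranges of the 3 lines did not overlap, and the mean of RS4;11 was 2.28-fold that of NALM-6 and 6.30-fold that of BV-173. *B2M* was also highest in RS4;11, at scaled levels of 2582 and 2928, against 1660 and 1283 in NALM-6 and 1364 and 1366 in BV-173. Its mean in RS4;11 was 1.87-fold and 2.02-fold that of the other lines, whose ranges overlapped.

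*HLA-E* and *NLRC5* had another order. *HLA-E* had scaled levels of 924 and 697 in BV-173, 494 and 664 in RS4;11 and 444 and 297 in NALM-6, with no overlap but with narrow gaps beside the distance between the controls of a line. *NLRC5* had scaled levels of 174 and 182 in BV-173, 106 and 126 in RS4;11 and 60.9 and 76.1 in NALM-6, so that the mean of BV-173 was 2.60-fold that of NALM-6. *HLA-F* was thus lowest, and *NLRC5* highest, in the same line. *HLA-B*, at a scaled level of 1174 to 1547 over all 6 control groups, was not apart between any pair of lines, and its means differed by at most 1.05-fold. *HLA-C*, *TAP1* and *TAPBP* were higher in RS4;11 than in both other lines by 1.22-fold to 1.48-fold, while *TAP2* was lower in BV-173 by 1.12-fold and 1.15-fold. The separations of *TAP2* and that of *HLA-C* between RS4;11 and BV-173 did not hold under both other scalings of the groups.

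Each line enters with 2 control levels per gene, and the controls also differ in handling, since only the scrambled shRNA cells were transduced and sorted.

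**Figure D1:**
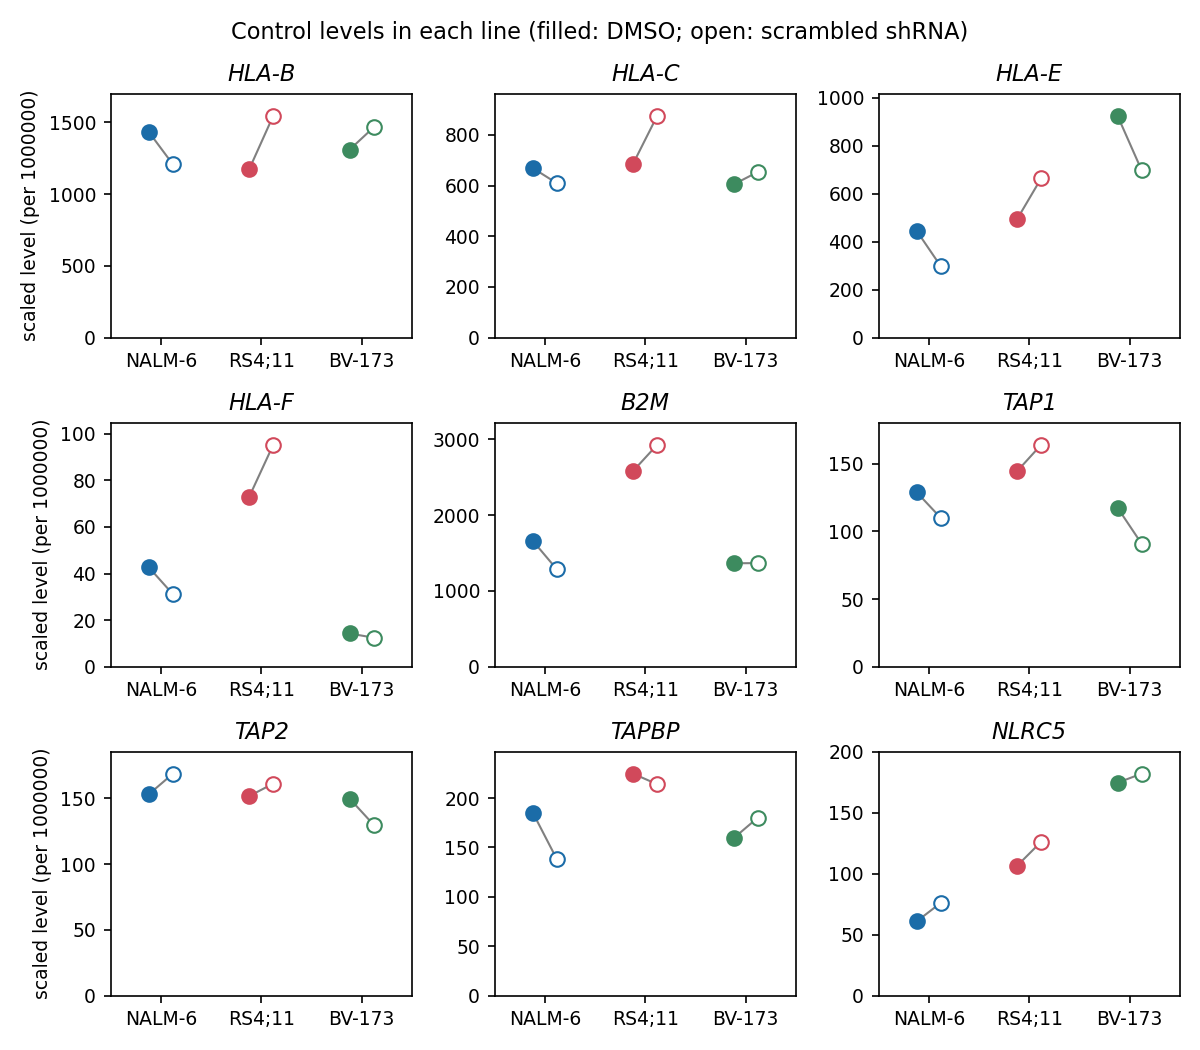
Control levels of the 9 members in the 3 cell lines, as scaled levels, per 1000000 of the summed level over 13307 genes (vertical axes start at 0 and differ between panels). Each point is 1 group, filled for DMSO and open for scrambled shRNA, with a grey line joining the 2 controls of a line. *HLA-F* and *B2M* are highest in RS4;11, *HLA-E* and *NLRC5* in BV-173, and *HLA-B* overlaps between all lines.

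*CCND3* knockdown was accompanied by small differences, most of them upward. *HLA-B*, *HLA-C*, *HLA-E*, *B2M* and *TAPBP* were higher than the scrambled control in all 3 lines. The share of all genes with the same direction in several comparisons was not computed, here or below. *TAP2*, a subunit of the peptide transporter, lay close to its control in each line, with log2 ratios from -0.05 to 0.04. In NALM-6, 2 of 9 members, *TAPBP* and *NLRC5*, reached a 1.5-fold difference, where 16.3% of all genes did. In RS4;11, 1 of 9, *HLA-E*, did, where 19.4% of all genes did. In BV-173 none did, where 8.09% of all genes did. Among genes with a mean level of at least 100, which all members had, these backgrounds were 16.4%, 19.3% and 7.83%. Counted by direction, 7.82%, 9.73% and 3.32% of all genes were higher by this size, in the same order of lines, and 8.47%, 9.72% and 4.78% lower. In bulk RNA, fewer cells of a type and less RNA per cell cannot be told apart.

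In NALM-6, all 9 members were higher after knockdown, as were 7883 of all 15409 listed genes. The median log2 ratio of the members was 0.14, against 0.01 over all genes. The level of *NLRC5* was 1387 with the scrambled shRNA and 2328 with the *CCND3* shRNA, a log2 ratio of 0.75 that was exceeded by 4.67% of all genes. The level of *TAPBP* was 2516 and 3938, a log2 ratio of 0.65. The 4 heavy chain genes and *B2M* were closer to their control, from 0.12 for *HLA-F* to 0.24 for *HLA-E*. The knockdown group of this line had 2 samples.

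In RS4;11, the largest ratio was that of *HLA-E*, which had a level of 12571 with the scrambled shRNA and 19171 with the *CCND3* shRNA (log2 ratio 0.61). With both groups set to the same summed level this ratio was 0.58, just under 1.5-fold. *TAPBP* was at 4052 and 5442 (0.43). The other 7 members lay between -0.12 for *TAP1* and 0.20 for *HLA-C*, and *NLRC5*, at 2388 and 2468, was close to its control. The median of the 9 was 0.06, against 0.01 over all genes.

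In BV-173, the heavy chain genes and *B2M* lay together. Their levels with the scrambled and the *CCND3* shRNA were 28319 and 39940 for *HLA-B*, 12620 and 17872 for *HLA-C*, 13472 and 18161 for *HLA-E*, 241 and 314 for *HLA-F* and 26393 and 34339 for *B2M*. The log2 ratios of these 5 genes were 0.38 to 0.50, below the 1.5-fold size but each exceeded by at most 10.3% of all genes. The log2 ratio of the summed levels was 0.10 in this comparison, and with it taken out the 5 genes were at 0.28 to 0.40. *TAP1*, at 1756 and 2424, was alike (0.47), whereas *NLRC5* was lower, at 3513 and 3083 (-0.19). The median of the 9 was 0.38, against -0.01 over all genes.

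**Figure D2:**
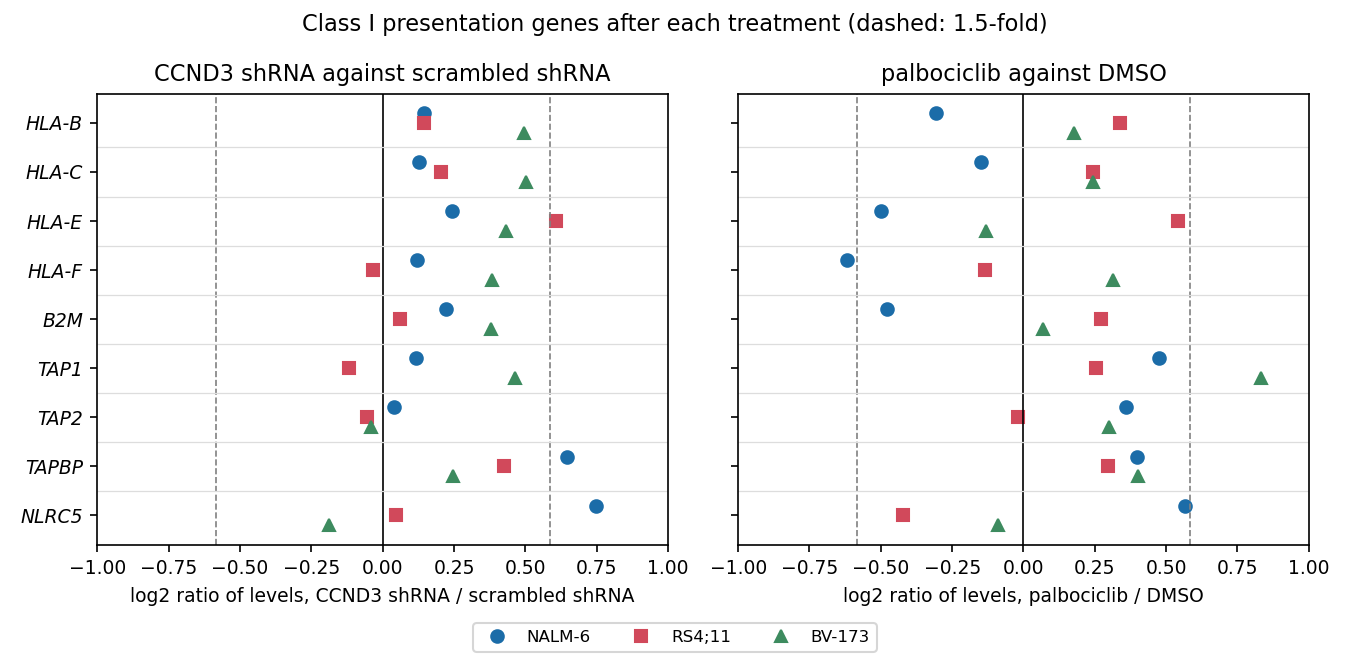
Log2 ratio of the group levels of each member, *CCND3* shRNA over scrambled shRNA (left) and palbociclib over DMSO (right), with 1 point per cell line and dashed lines at a 1.5-fold difference. Points are ratios of 2 group levels and have no error bars, since the deposited tables hold no replicate values. *TAPBP* lies right of 0 in all 6 comparisons, and after palbociclib the NALM-6 points of the heavy chain genes and *B2M* lie left of 0.

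After palbociclib the class I molecule genes lay on different sides of DMSO in different lines, all but *HLA-F* in NALM-6 by less than 1.5-fold. *TAP1* and *TAPBP* were higher than DMSO in all 3 lines, whereas none of the 4 heavy chain genes or *B2M* lay on the same side of DMSO in all 3. The 4 heavy chain genes and *B2M* had a median log2 ratio of -0.48 for NALM-6, 0.27 for RS4;11 and 0.18 for BV-173, and *TAP1*, *TAP2*, *TAPBP* and *NLRC5* had medians of 0.44, 0.12 and 0.35. In NALM-6, 1 of 9 members reached a 1.5-fold difference, *HLA-F*, which was lower, where 36.3% of all genes reached it. In RS4;11 none did, where 31.7% of all genes did. In BV-173, 1 did, *TAP1*, which was higher, where 25.5% of all genes did. For genes with a mean level of at least 100 the backgrounds were 32%, 29.8% and 25.7%. By direction, 21.4%, 16.7% and 13.6% of all genes were higher by this size, in the same order of lines, and 14.9%, 15% and 11.9% lower.

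In NALM-6, all 4 heavy chain genes and *B2M* were lower than DMSO, and *TAP1*, *TAP2*, *TAPBP* and *NLRC5* were all higher. The levels in DMSO and palbociclib were 27785 and 22438 for *HLA-B*, 12963 and 11693 for *HLA-C*, 8611 and 6093 for *HLA-E*, 827 and 538 for *HLA-F* and 32179 and 23093 for *B2M*. The log2 ratios ran from -0.15 for *HLA-C* to -0.62 for *HLA-F*, with -0.48 for *B2M*. The log2 ratio of the summed levels of these 2 groups was itself -0.13. With it taken out, *HLA-F* was at -0.49, under 1.5-fold, while *TAP1* (0.60) and *NLRC5* (0.70) were past it. No ratio changed sign, but *HLA-C*, at -0.02, was then close to DMSO. In the deposited levels, *TAP1* was at 2497 and 3469 (0.47) and *TAP2* at 2967 and 3803 (0.36). *TAPBP* was at 3592 and 4733 (0.40) and *NLRC5* at 1180 and 1748 (0.57). The DMSO control of this line was itself higher than its scrambled control for the 5 genes that were lower after palbociclib, by 0.14 (*HLA-C*), 0.25 (*HLA-B*), 0.37 (*B2M*), 0.46 (*HLA-F*) and 0.58 (*HLA-E*) in log2 scaled level. It was also higher for *TAP1* (0.23) and *TAPBP* (0.42), which were higher after palbociclib, and lower for *TAP2* (-0.14) and *NLRC5* (-0.32). No member was 1.5-fold or more apart between the controls of a line, whereas 23.7%, 14.4% and 19% of all genes were, for NALM-6, RS4;11 and then BV-173. The part of this difference between controls in the palbociclib ratios was not tested.

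In RS4;11, *HLA-E* had the largest ratio, with levels of 9713 in DMSO and 14126 in palbociclib (log2 ratio 0.54). *HLA-B* was at 23091 and 29211 (0.34) and *B2M* at 50809 and 61377 (0.27). *NLRC5* had the lowest ratio, at 2093 and 1564 (-0.42). *TAP2*, at 2985 and 2949, was close to DMSO (-0.02). The median of the 9 was 0.26. In log2 scaled level, DMSO was below the scrambled control for *HLA-B* (-0.40), *HLA-C* (-0.35), *HLA-E* (-0.43), *HLA-F* (-0.39) and *B2M* (-0.18). It was also below for *TAP1* (-0.18), *TAP2* (-0.09) and *NLRC5* (-0.25), and above for *TAPBP* (0.07). *HLA-F*, *TAP2* and *NLRC5* were lower after palbociclib as well. The part of this difference between controls in the RS4;11 ratios was not tested.

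In BV-173, *TAP1* was at 2261 in DMSO and 4027 in palbociclib, a 1.78-fold higher level and the largest ratio of any member in the 6 comparisons (log2 ratio 0.83). It was exceeded by 7.27% of all genes. *TAP2*, at 2884 and 3547 (0.30), *TAPBP*, at 3065 and 4047 (0.40), and *HLA-F*, at 274 and 341 (0.31), were also higher. *HLA-E*, at 17784 and 16236, was lower (-0.13), and *B2M*, at 26244 and 27502, was close to DMSO (0.07). The DMSO group of this line had 2 samples. In log2 scaled level, DMSO was above the scrambled control for *HLA-E* (0.41), *TAP1* (0.37), *TAP2* (0.21) and *HLA-F* (0.19). It was below for *HLA-B* (-0.16), *HLA-C* (-0.11), *B2M* (-0.002), *TAPBP* (-0.18) and *NLRC5* (-0.06). The part of this difference between controls in the BV-173 ratios was not tested. The summed level of the myeloid markers in this line was 260 in DMSO and 598 in palbociclib, beside 83731 and 73173 for the B-cell precursor markers, and their part in these ratios was not tested. The median of the 9 was 0.25, and in NALM-6 it was -0.15, against 0.04 and 0.06 over all genes.

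**Figure D3:**
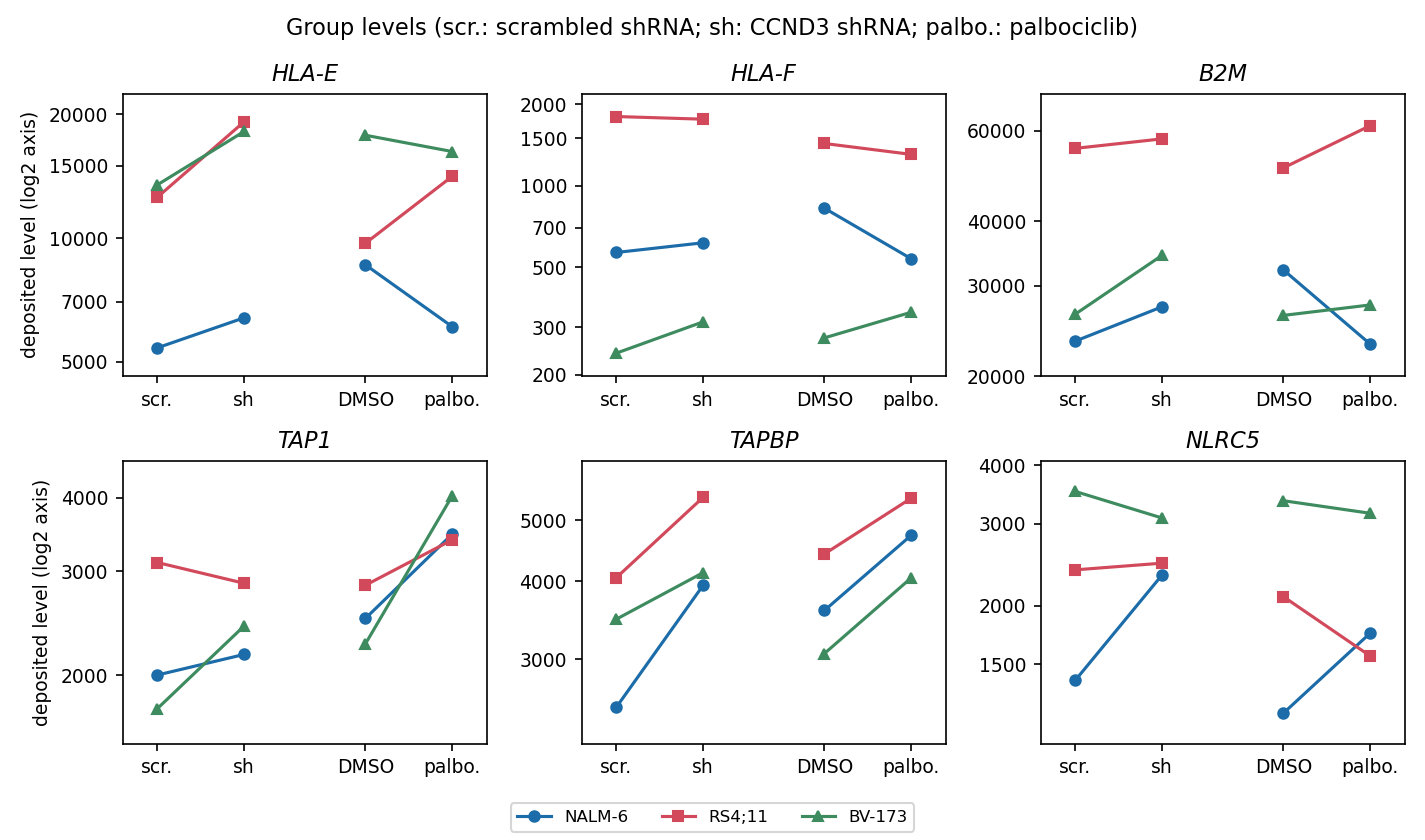
Deposited levels of 6 members in the 12 groups (log2 axis), with a line joining each treated group to its own control in the same cell line. Within a panel, levels of different tables were scaled separately by the authors, so only joined points are directly comparable. In NALM-6, *HLA-E*, *HLA-F* and *B2M* slope down and *TAP1*, *TAPBP* and *NLRC5* slope up after palbociclib.

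Set side by side within a line, the ratios of the 2 treatments to their own controls differed most for *HLA-E*, *HLA-F* and *B2M* in NALM-6. The knockdown log2 ratio was above the palbociclib log2 ratio by 0.74 for *HLA-E*, 0.74 for *HLA-F* and 0.70 for *B2M*, the only 3 of 27 pairs of member and line that were 1.5-fold or more apart. In NALM-6, 30.1% of all genes were that far apart, and in RS4;11 and BV-173, where no member was, 20.1% and 23% were. The treatments had separate controls, durations and handling, since only the shRNA cells were transduced and sorted. These cannot be told apart from the difference between knockdown and kinase inhibition. In scaled level, *HLA-E* of NALM-6 was 357 after knockdown and 344 after palbociclib, with 297 in the scrambled control and 444 in DMSO. In the same order, *HLA-F* was at 34.4, 30.4, 31.1 and 42.7, and *B2M* at 1521, 1303, 1283 and 1660. The part of the controls in these differences was not tested. *TAPBP* was higher than its control in all 6 comparisons, with log2 ratios of 0.25 to 0.65 after knockdown and 0.30 to 0.40 after palbociclib. *TAP1* was higher after palbociclib in each line by 0.26 to 0.83, and after knockdown its ratios were -0.12 to 0.47.

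The other genes of the pathway were read from lists of genes chosen by function. Of 12 genes that supply peptides (immunoproteasome subunits, their activators and peptidases), none was 1.5-fold from DMSO in any line, and the only one at that size after knockdown was *PSME2*, which encodes a proteasome activator subunit, at -0.63 in NALM-6. The medians of this list were -0.10, -0.07 and 0.02 after knockdown and -0.19, -0.11 and 0.06 after palbociclib for the lines in the order NALM-6, RS4;11, BV-173, which the values below also follow. Of 5 genes that fold and load class I molecules in the endoplasmic reticulum, 0, 2 and 4 were at that size after palbociclib, all higher, or 0%, 40% and 80% of the list beside 21.4%, 16.7% and 13.6% of all genes. In BV-173 these included *HSPA5*, which encodes the chaperone BiP, at 1.47 and *CALR*, which encodes calreticulin, at 1.01. After knockdown, 0 of the 5 were at that size in any line, beside 16.3%, 19.4% and 8.09% of all genes.

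Among 21 regulators of class I transcription, *NFYB*, a subunit of the factor that binds CCAAT, was lower by 1.5-fold or more after palbociclib in all 3 lines. Its log2 ratios were -0.91, -1.07 and -0.94. The other subunits did not share this, with 0.86, 0.20 and 0.43 for *NFYA* and 0.08, -0.42 and -0.60 for *NFYC*. *IRF1*, a factor that interferon induces, was at -0.09, 0.62 and 0.07 after palbociclib and -0.95, -0.38 and 0.002 after knockdown. Of these regulators, 5, 6 and 3 were past 1.5-fold after palbociclib and 3, 5 and 0 after knockdown, beside 36.3%, 31.7% and 25.5% of all genes after palbociclib and 16.3%, 19.4% and 8.09% after knockdown. As shares of the list these counts were 23.8%, 28.6% and 14.3% after palbociclib and 14.3%, 23.8% and 0% after knockdown. Among class I-like molecules, 36.4%, 23.1% and 15.4% were higher by 1.5-fold or more after palbociclib and 36.4%, 38.5% and 30.8% lower. Of all genes, 21.4%, 16.7% and 13.6% were higher and 14.9%, 15% and 11.9% lower. The list holds genes with mean levels under 10. Within it, 3 of 5 ligands of the receptor NKG2D were lower in all 3 lines, without a share of all genes to set beside this count. *MICB* was at -1.31, -0.91 and -0.67, *MICA* at -1.76, -0.15 and -0.65 and *ULBP1*, whose mean level in RS4;11 was 9.14, at -1.11, -1.46 and -2.46. *ULBP3* was higher in all 3 (0.60, 0.65 and 1.18), and *ULBP2* was at 0.48, 0.89 and -0.51. *ULBP3* was also higher after knockdown, at 1.49, 0.69 and 0.34.

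Interferon-stimulated genes were spread on both sides of their controls. After palbociclib, 10 of 28 were higher and 4 lower by 1.5-fold or more in NALM-6, 10 and 4 of 29 in RS4;11 and 8 and 5 of 28 in BV-173, with medians of 0.34, 0.23 and 0.14. These were 35.7%, 34.5% and 28.6% of the list higher and 14.3%, 13.8% and 17.9% lower, beside 21.4%, 16.7% and 13.6% of all genes higher and 14.9%, 15% and 11.9% lower. *BST2*, which encodes the virus-tethering protein tetherin, was the one gene of the list that was higher at this size in all 3 lines (1.20, 1.15 and 1.26). After knockdown the medians were -0.07, 0.11 and -0.04.

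The MHC class II genes, which present peptides from outside the cell, stood apart from the class I genes in the size of their ratios after palbociclib. After knockdown they stood apart in direction in NALM-6 and in size in RS4;11. After palbociclib, 10 of 12 class II genes in NALM-6, 12 of 12 in RS4;11 and 10 of 12 in BV-173 were higher by 1.5-fold or more, or 83.3%, 100% and 83.3% of the list beside 21.4%, 16.7% and 13.6% of all genes, with median log2 ratios of 1.22, 1.59 and 1.47 beside -0.15, 0.26 and 0.25 for the 9 class I genes. After knockdown, the class II median was -0.62 in NALM-6, where all 12 genes were lower and the 9 class I genes higher, 1.07 in RS4;11 and 0.19 in BV-173. The class I medians were 0.14, 0.06 and 0.38. Past 1.5-fold after knockdown were 6, 12 and 2 of the 12 class II genes, or 50%, 100% and 16.7%. Of all genes, 16.3%, 19.4% and 8.09% were. The 6 in NALM-6 were lower, the 12 in RS4;11 higher, and in BV-173 1 was higher and 1 lower. *CIITA*, the transactivator of class II genes, was at -0.99, 1.04 and -0.65 after knockdown, while *NLRC5* was at 0.75, 0.05 and -0.19. After palbociclib, *CIITA* was at 1.23, 1.06 and 0.53 and *NLRC5* at 0.57, -0.42 and -0.09.

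**Figure D4:**
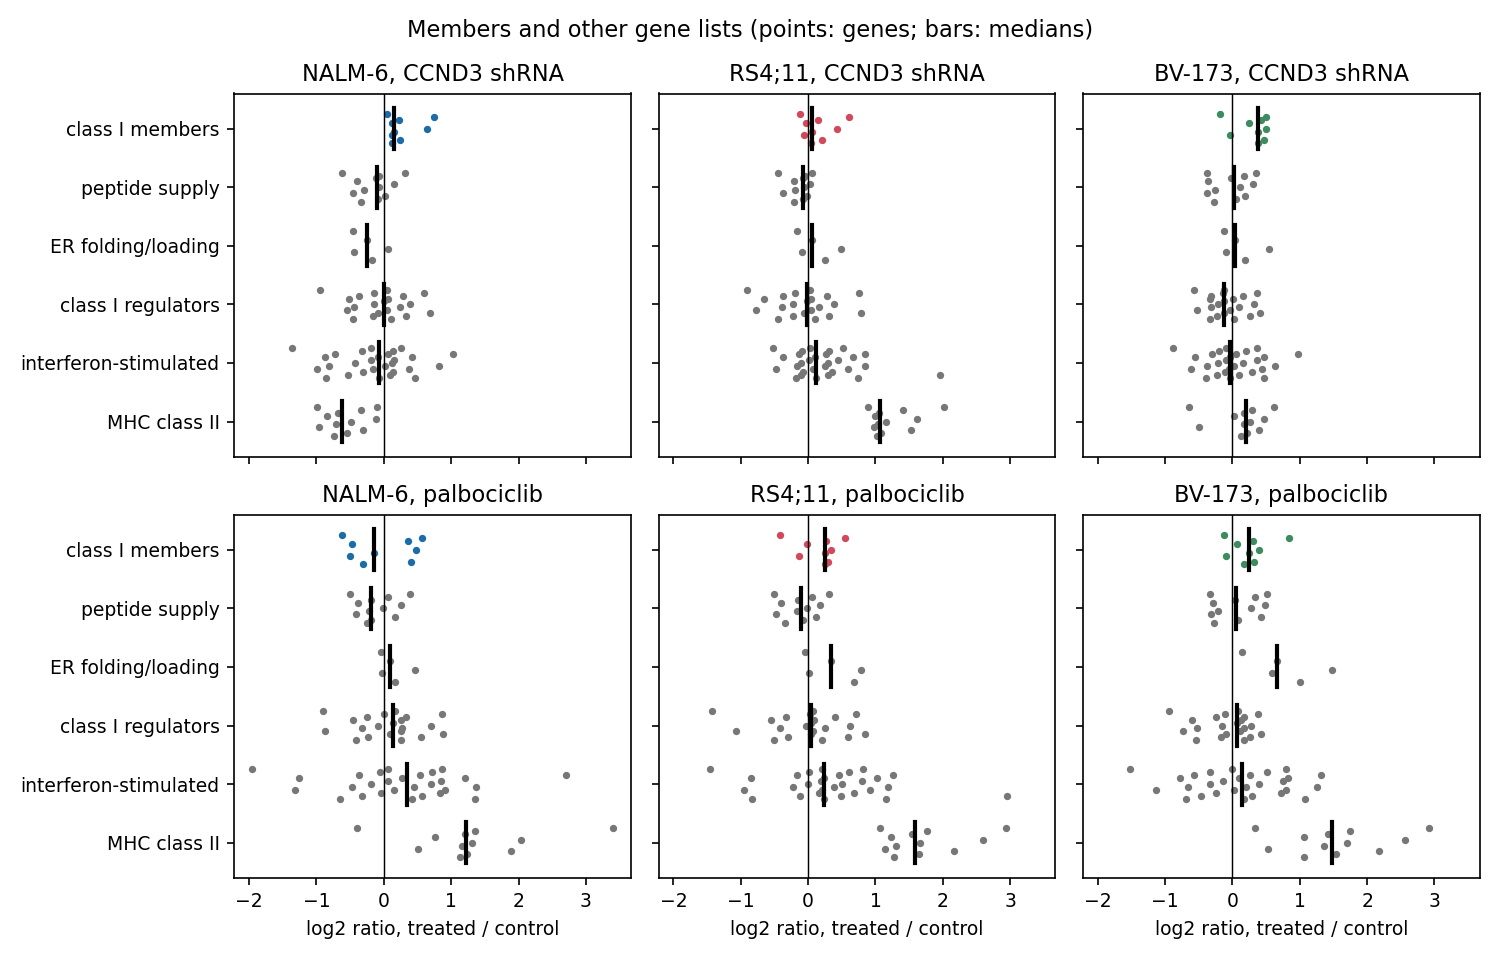
Log2 ratio of treated over control level for the genes of 6 lists in the 6 comparisons, with points for genes (class I members coloured), black bars for list medians and a thin line at 0. After palbociclib the class II medians are 1.22, 1.59 and 1.47, and the class I members stay between -0.62 and 0.83.

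Over the 12 groups, which share 3 lines, the likeness of level patterns was described by Pearson's r of log2 scaled levels among genes with a mean level of at least 100 in each table. The points share lines and controls, so r includes the differences between the lines and is given as a description only. *HLA-B* was most like *HLA-C* (r = 0.77), of 8692 other genes, and the next was *RPS15* (0.75). *HLA-C* was most like *SDF4*, *WAS* and *SQSTM1* (0.84 to 0.86), with *HLA-B* at rank 25 and *B2M* at rank 35. *B2M* was most like *PITPNC1*, *ZYX* and *RHOBTB3* (0.96 to 0.97), and of the members *HLA-F* came first, at rank 240 (0.84). *HLA-F* was most like *EMP3*, *CYSTM1* and *DENND1A* (0.97 to 0.98).

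The transporter genes were like neither the heavy chains nor, closely, each other. *TAP1* was most like *ZSWIM7*, *CITED2* and *TNK2* (0.85 to 0.86), with *TAPBP* (0.64) and *TAP2* (0.60) at ranks 206 and 314. *TAP2* was most like *KRCC1*, *RETREG2* and *MAN1A2* (0.88 to 0.89), and its r with *HLA-B* was -0.60. *TAPBP* was most like *ZNF580*, *FBXW4* and *FAM234A*, each at 0.93. *NLRC5* was most like *ARID3B*, *RNPEPL1* and *ST3GAL1* (0.87 to 0.93), and the member most like it was *HLA-E* (0.60, rank 631), while its r with *HLA-F* was -0.51. *HLA-E* was most like *COQ8A*, *TOP1MT* and *VPS51* (0.94 to 0.96).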

How the data were processed

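RNA of 34 samples in 12 groups was analysed, with groups taken from the labels for line and treatment. Per the submitters' notes and methods, the authors' libraries were made after oligo dT enrichment, reads were mapped with Bowtie2 to hg38, gene levels were estimated with RSEM and pairs of groups were compared with DESeq2, with versions not given in the sources used here. Mapping to reference transcripts can misplace or lose reads of variable heavy chain alleles. Each of the authors' 6 deposited tables holds 1 signal per gene and group, here called level, and a gene length in bases. Their log2 fold changes, p-values and adjusted p-values were not used. The design had allowed for counts or normalized values per sample, which the tables used here do not hold, so no test was run and no error was computed.

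Log2 ratios were taken between the 2 levels of a table with no pseudocount and no filter, since no level was 0. The lowest was 0.145. Levels per kilobase used the length of the same table. Levels between lines were set per 1000000 of the summed level over 13307 genes. The members and gene lists were chosen with earlier results of these data known. Named were all members, the 3 genes most like each member, and *CCND3*. From the lists came genes past 1.5-fold in the same direction in all 3 lines, with a mean level of at least 10 per table. At most the 3 largest others per list were added, and the measure of size was not set beforehand. *CIITA*, *MME*, *MICA*, *ULBP1*, *ULBP2*, *NFYA*, *NFYC* and the myeloid markers fall outside this rule and were named after their values were seen. The genes of the rule in the class II and marker lists are given as counts or summed levels, *PSME2*, *HSPA5*, *CALR* and *IRF1* stand for their lists, and 1 gene of the likeness rule is not reported here.

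The alternatives were a 2-fold threshold, a pseudocount of 10, equal summed levels, centring on the median of all genes, level filters of 10 and 100, leaving out the heavy chains or 1 line, and other scalings between lines. Equal summed levels for the comparison of treatments, and backgrounds by level, were added after seeing the data. Calculations used pandas 2.3.3 and numpy 2.4.6 under Python 3.11.15, figures used matplotlib 3.10.9, and the ratio, the threshold and the motif search were tested on simulated data. Promoters came from RefSeq (GRCh38.p14) and transcripts from GENCODE 44.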

Additional observations from a re-analysis of the deposited data

How the results depend on the processing

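No paired analysis was possible because the tables hold 1 level per group and carry no replicate numbers, and for the same reason no replicate could be left out. Of 27 pairs of member and line, 3 were past 1.5-fold after knockdown and 2 after palbociclib. At a fold of 2 these counts were 0 and 0, and under the other alternatives 2 to 3 and 2 to 3. Of 162 ratios recomputed for single members under a pseudocount, equal summed levels or centring, none changed sign and 4 changed their side of 1.5-fold, all with equal summed levels: *HLA-E* in RS4;11 after knockdown (0.58) and *HLA-F* in NALM-6 after palbociclib (-0.49) went below it, and *TAP1* (0.60) and *NLRC5* (0.70) in NALM-6 after palbociclib went past it. The members' median, averaged over the lines, was 0.20 after knockdown (0.10 to 0.26 with 1 line left out) and 0.12 after palbociclib (0.05 to 0.25). Without the heavy chains it was 0.17 and 0.32. Of 19 pairs of lines with separate control ranges over the members, 16 were also separate, in the same direction, under both other scalings. The 3 that were not were *TAP2* in BV-173 against each other line and *HLA-C* in RS4;11 against BV-173. The ratios of the 2 treatments were 1.5-fold apart in 3 pairs of member and line, and in 3 to 4 under the alternatives. No level per sample was used, so the ratios given here were not set against replicate error.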

Other observations

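The deposited gene length of *TAP2* differed between the lines. It was 3892 and 3901 bases in the knockdown and palbociclib tables of RS4;11, against 5628 and 5294 in NALM-6 and 5308 and 5407 in BV-173. The shortest of the other 4 lengths was 1.36-fold the longest of the RS4;11 pair, a ratio reached by 6 of the 13307 shared genes (0.0451%). The level of *TAP2* did not differ in the same way, with scaled control levels of 152 and 161 per 1000000 in RS4;11 and 153 and 169 in NALM-6. GENCODE 44 lists 9 transcripts of *TAP2*, of 849 to 6194 bases, with a canonical transcript of 5643 bases. How the deposited length was averaged over transcripts is not given in the sources used here, so which transcripts were counted was not tested. The lengths of *HLA-B*, *HLA-C*, *HLA-E* and *B2M* were the same in all 6 tables (1624, 1586, 2679 and 987 bases), and those of *TAP1* ran from 2668 to 2816.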
